A study of Homo sapiens with 8 samples.

Results

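The regions described here are places in MCF10A cells, an established human breast epithelial line that does not form tumours, where ChIP-seq listed HP1b without HP1a in wild type and still listed HP1b after HP1a was knocked down. Peaks of both wild-type HP1b lists on chromosomes 1 to 22 were merged, and a merged region was used if it overlapped a peak of each replicate by at least 1 base. Of these 76117 wild-type HP1b regions, 38065 overlapped no peak of either wild-type HP1a list and are called HP1b-only. Among the HP1b-only regions, 9444 overlapped a peak in both HP1b lists from the HP1a knockdown and are called kept. A further 11914 were met by a peak in 1 of those lists, and 16707, called lost, by none. The remaining 38052 regions were shared with HP1a in wild type.

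The labels give 4 groups of 2 libraries, all from MCF10A without any further treatment. HP1a and HP1b were each mapped in wild-type cells, HP1a was mapped in cells labelled HP1B knock-down, and HP1b in cells labelled HP1A knock-down. The libraries of a group are numbered replicates 1 and 2 and are not stated to be separate cultures, so the spread between them may be technical. The sources used here do not say how the knockdowns were made, how much protein was left or whether a line was 1 clone. The lists of the rule held between 109345 and 226766 autosomal peaks, and the HP1a lists from the HP1b knockdown held 18658 and 18071. No list gives read counts, so depth is unknown. Where no peak was listed, the protein may still have been bound.

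HP1 proteins are small adaptor proteins that bind histone H3 methylated at lysine 9 through a chromodomain. They dimerise through a chromoshadow domain, which also recruits partners, and they are found in the condensed, mostly silent part of the genome. HP1a is encoded by CBX5, HP1b by CBX1 and the third paralog, HP1g, by CBX3. Well-known places of this kind of chromatin are the clusters of C2H2 zinc finger genes, which encode DNA-binding proteins that often repress transposable elements, and the clustered protocadherin genes, which encode neuronal surface proteins chosen promoter by promoter.

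Of 33725 RefSeq promoter windows on the autosomes of GRCh38.p14, each from 250 bases before to 50 bases after a gene's start, 71 (0.21%) touched a kept region and 42 lay wholly inside one. The 4 of these whose HP1b peaks had the highest fold enrichment in the weakest of the 4 HP1b libraries, counting a gene once, are printed 5′ to 3′ on the gene's strand with each CpG in capitals, because the windows in kept regions were poor in CpG. They belong to PCDHGA6, a gamma protocadherin gene (chr5:141373641-141373940, plus strand), to the uncharacterised non-coding gene LOC124904704 (chr19:35575391-35575690, plus strand), to the long non-coding RNA gene LINC01535 (chr19:37251635-37251934, plus strand) and to RIPOR2, which encodes an inhibitor of the small GTPase RhoA (chr6:24877221-24877520, minus strand).
PCDHGA6: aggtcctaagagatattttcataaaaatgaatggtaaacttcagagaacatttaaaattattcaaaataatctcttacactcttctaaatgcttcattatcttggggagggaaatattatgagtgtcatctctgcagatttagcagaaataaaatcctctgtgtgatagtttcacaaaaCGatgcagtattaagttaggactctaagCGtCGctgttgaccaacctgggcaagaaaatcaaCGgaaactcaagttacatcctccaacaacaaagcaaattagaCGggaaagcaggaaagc
LOC124904704: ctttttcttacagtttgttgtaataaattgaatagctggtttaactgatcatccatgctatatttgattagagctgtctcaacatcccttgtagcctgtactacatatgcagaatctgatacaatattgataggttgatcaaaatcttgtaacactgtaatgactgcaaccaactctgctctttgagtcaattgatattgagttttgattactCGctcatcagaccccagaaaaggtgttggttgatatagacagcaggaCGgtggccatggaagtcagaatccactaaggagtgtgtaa
LINC01535: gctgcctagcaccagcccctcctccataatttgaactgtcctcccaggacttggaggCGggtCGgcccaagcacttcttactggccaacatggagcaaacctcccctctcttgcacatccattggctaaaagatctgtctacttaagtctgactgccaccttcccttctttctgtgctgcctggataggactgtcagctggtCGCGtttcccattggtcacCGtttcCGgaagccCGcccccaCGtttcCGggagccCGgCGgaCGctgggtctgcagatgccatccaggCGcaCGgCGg
RIPOR2: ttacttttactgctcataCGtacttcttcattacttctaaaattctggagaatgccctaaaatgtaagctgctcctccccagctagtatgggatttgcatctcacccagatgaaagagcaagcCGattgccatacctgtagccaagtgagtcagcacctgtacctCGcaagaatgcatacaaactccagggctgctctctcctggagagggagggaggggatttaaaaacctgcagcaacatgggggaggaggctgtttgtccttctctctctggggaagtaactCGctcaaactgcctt

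The PCDHGA6 window held 5 CpG and a GC content of 36.0%, that of LOC124904704 2 CpG and 38.0%, that of RIPOR2 4 CpG and 48.3%, and that of LINC01535 15 CpG and 59.3%. LINC01535 was therefore the only 1 of the 4 near the 14 CpG and 58.7% GC that were the medians over all windows. The PCDHGA6 window lay in a kept region of 2076 bases, where the strongest HP1b peak had a fold enrichment of 3.22 and 3.85 in wild type, compared with 3.15 and 3.13 in the HP1a knockdown. The LINC01535 region spanned 1715 bases, with HP1b folds of 3.15 and 3.74 in wild type, compared with 2.96 and 3.03 in the HP1a knockdown. In the HP1b knockdown an HP1a peak was listed at the regions of LOC124904704 (fold 3.36, replicate 2), LINC01535 (3.18, replicate 1) and RIPOR2 (3.09, replicate 2), and in neither library at that of PCDHGA6.

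The median GC content was 47.0% over the 71 windows touched by kept regions, 50.5% over the 192 touched by lost regions and 49.7% over the 466 touched by shared regions. The medians of CpG per 100 bases were 1.00, 1.33 and 1.00, against 4.67 over all windows, so windows in every class were poorer in CpG than promoters at large. Protein-coding genes owned 22 of the 71 windows (31.0%), 52.1% of those touched by lost regions and 62.7% of all. The GC box GGGCGG, searched on both strands as were the other motifs, was present in 9.86% of the 71 windows and 45.0% of all windows. TATAAA was present in 21.1 and 11.6%, CCAAT in 36.6 and 34.4%, and the AP-1 motif TGACTCA in 12.7 and 4.91%. Windows touched by lost and by shared regions had GGGCGG in 22.9 and 15.0% and TATAAA in 13.0 and 10.7%. They had CCAAT in 39.6 and 42.7% and TGACTCA in 9.90 and 7.73%. The kept shares of TATAAA and TGACTCA rest on 15 and 9 of the 71 windows. Among protein-coding windows alone, the 22 touched by kept regions had GGGCGG in 18.2%, against 56.6% of all such windows. TATAAA was present in 13.6 and 9.51% of these, CCAAT in 40.9 and 34.4%, and TGACTCA in 9.09 and 3.98%. The kept values for TATAAA and TGACTCA are 3 and 2 of the 22 windows. None of these motifs contains another, and a match is a run of letters, not a bound site.

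Because the peaks of the 4 HP1b libraries chose the members, their strength is a description only. The fold is the authors' enrichment of a peak over its background, and the strongest peak of a region was taken. At the kept regions it had a median of 3.02 in wild-type replicate 1 (range 2.34 to 5.87), 3.17 in replicate 2 (2.42 to 5.88), 2.88 in HP1a-knockdown replicate 1 (2.05 to 5.96) and 3.00 in replicate 2 (2.003 to 6.60). Folds of different lists are not on a common scale, so the order of these medians shows no change. Most of these peaks were weak: 95.4, 88.5, 87.7 and 63.9% of the regions had no peak with −log10 q of at least 2 in the respective list, where every list began at 1.00. The rank of a region was only loosely held between libraries, with Spearman correlations of the fold across the 9444 regions between 0.14 and 0.28.

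**Figure D1:**
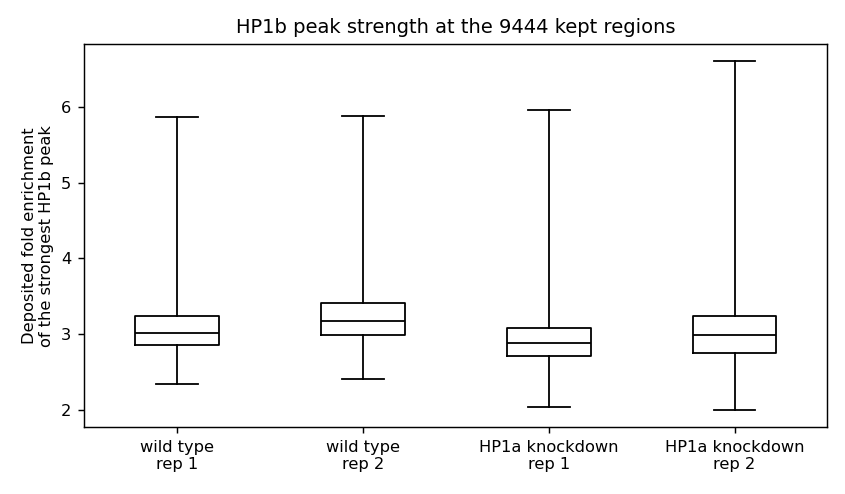
Deposited fold enrichment (ratio, linear axis that does not start at 0) of the strongest HP1b peak at the 9444 kept regions in each of the 4 HP1b libraries. Boxes show the quartiles with the median as a line and whiskers reach the lowest and highest region; the 4 boxes overlap, with medians from 2.88 to 3.17.

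Kept regions had a median width of 1148 bases (168 to 6155) and made up 12.2 Mb. Their median exceeded the 900 bases of regions met in 1 HP1a-knockdown list and the 821 bases of lost regions, and lay below the 1319 bases of shared regions. Widths of 2 kb or more occurred in 14.6% of kept, 5.71% of single-list, 3.41% of lost and 24.7% of shared regions. A wider region has more room to meet a peak, so width is tied to the rule. The median wild-type fold in the weaker replicate was 2.95, 2.88, 2.83 and 2.93 in the 4 classes. The nearest wild-type HP1a peak was a median of 2.83 kb away from a kept region and 3.29 kb from a lost one. It was within 1 kb of 1960 kept regions (20.8%), near the 18.2% of single-list, 17.9% of lost and 18.7% of all HP1b-only regions.

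Wild-type HP1b peaks covered 70.3 and 67.5% of the bases of the kept regions, which are unions of those peaks, and HP1a-knockdown peaks covered 53.8 and 55.5%. At the edge of the rule, 643 kept regions (6.81%) had under 100 bases covered in the weaker HP1a-knockdown list. In 3579 (37.9%) at least 50% of the bases were covered in both. Just outside it, 4259 HP1b-only regions were met in HP1a-knockdown replicate 1 alone and 7655 in replicate 2 alone, the longer list. Without replicate 1 of the HP1a knockdown the rule would have kept 17099 regions, and without replicate 2 it would have kept 13703. Asking for only 1 wild-type HP1b library gave 18574 regions without replicate 1 and 18024 without replicate 2, and setting aside a wild-type HP1a list gave 14858 without replicate 1 and 14589 without replicate 2.

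Kept regions were 24.8% of the HP1b-only regions. Over all wild-type HP1b regions the share met in both HP1a-knockdown lists was 35.5%, and among shared regions it was 46.3%. These shares follow from the rule and the list lengths and are given for scale.

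The HP1a lists from the HP1b knockdown took no part in the rule, and show where HP1a was listed when HP1b was depleted. None of the kept regions had a wild-type HP1a peak, by definition. In the HP1b knockdown 1579 of 9444 (16.7%, exact binomial 95% interval 16.0 to 17.5%) met an HP1a peak in at least 1 library, against a background of 11.3% over all wild-type HP1b regions. The share was 6.66% (6.22 to 7.13%) of regions met in 1 HP1a-knockdown list and 2.57% (2.33 to 2.82%) of lost regions. It was 15.3% (15.0 to 15.7%) of shared regions, which did have HP1a in wild type. With −log10 q of at least 2 required in every list, 2 of 123 kept regions (1.63%) and 0.33% of lost regions met an HP1a peak. The intervals cover counting error over regions only, and no test was made because each side has 2 libraries.

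The order was the same in each library taken alone. HP1b-knockdown replicate 1 listed an HP1a peak at 8.92% of kept, 3.47% of single-list and 1.27% of lost regions, and replicate 2 at 9.23, 3.51 and 1.35%. Both libraries together met 135 kept regions (1.43%, background 1.25%), 0.32% of single-list regions and 0.054% of lost regions, and 2.03% of shared regions. Thus most kept regions with HP1a in the HP1b knockdown were listed in only 1 of its libraries. HP1a peaks covered 2.98 and 3.19% of the kept bases, against 0.33 and 0.32% of the autosomal extent of 2874 Mb, 2.30 and 2.50% of the bases of all wild-type HP1b regions and 2.82 and 3.11% of those of shared regions.

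Among kept regions the share rose with width and with peak strength, and kept regions lay above lost regions within each of their levels. Among regions under 500 bases wide 8.35% of kept and 1.75% of lost regions met an HP1a peak, from 500 bases to 1 kb 12.4 and 2.51%, from 1 to 2 kb 18.1 and 3.07%, and at 2 kb or wider 26.7 and 3.34%. By quartile of the weaker wild-type fold the kept share ran from 11.8% in the lowest to 19.1% in the highest, and the lost share stayed between 2.44 and 2.93%. On chromosome 19 it was 24.5% of kept and 6.23% of lost regions, and on the other chromosomes 16.1 and 2.50%. Against shared regions the order was not fixed: shared regions lay above kept ones at 2 kb or wider (29.0%), in the highest fold quartile (23.5%) and on chromosome 19 (29.1%). Among the single chromosomes apart from 19 the kept share was lowest on chromosome 2 (11.4%) and highest on chromosome 17 (25.7%).

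**Figure D2:**
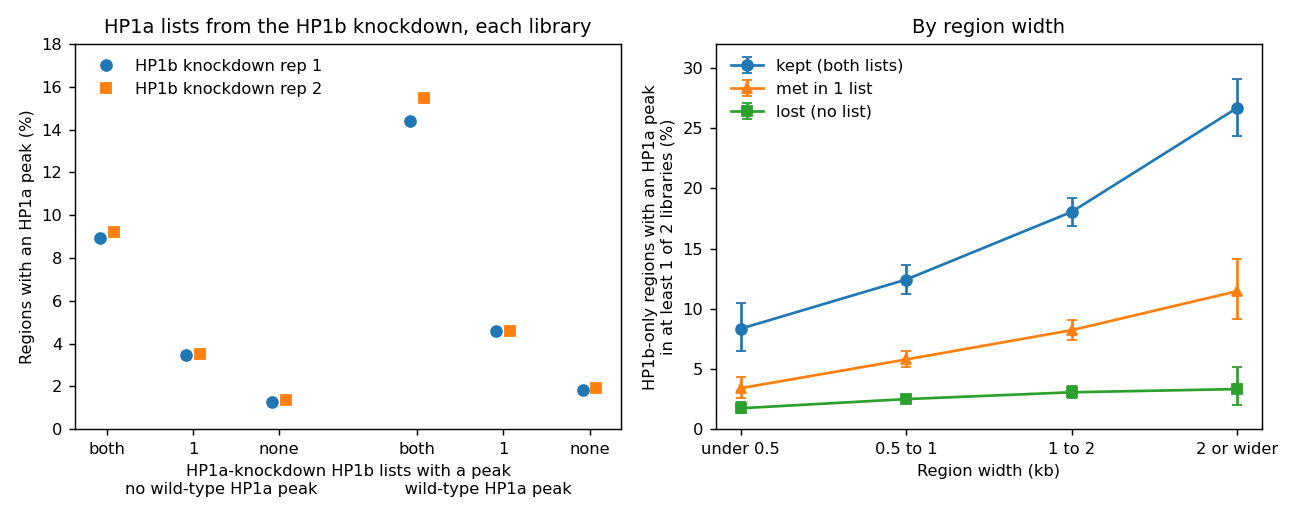
Left, percent of wild-type HP1b regions with an HP1a peak in each HP1b-knockdown library (points), by how many HP1a-knockdown HP1b lists met them, without and with a wild-type HP1a peak. Right, percent of HP1b-only regions with an HP1a peak in at least 1 of the 2 libraries by region width in kb, with exact binomial 95% intervals; kept regions rise from 8.35 to 26.7% and stay above single-list and lost regions at every width.

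The same gradient was present where HP1a was listed in wild type. Shared regions met by HP1b in both HP1a-knockdown lists had an HP1a peak in the HP1b knockdown in 25.8% of cases, those met in 1 list in 8.82% and those met in none in 3.71%. Presence in the HP1a-knockdown HP1b lists therefore went with presence in the HP1b-knockdown HP1a lists on both sides of the rule. Read from the other side, 851 of the 18658 HP1a peaks of HP1b-knockdown replicate 1 (4.56%) and 885 of 18071 of replicate 2 (4.90%) lay at kept regions. Their median fold was 3.44 and 3.37, against 3.37 and 3.32 over each whole list, and their median width 507 and 537 bases, against 447 and 451.

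The 8 kept regions listed for HP1a in both HP1b-knockdown libraries with the highest HP1b fold in the weakest library were spread over chromosomes 5, 7, 17 and 19. The first, chr17:33835104-33838349, lay in ASIC2, an acid-sensing ion channel gene. Its HP1b folds were 3.78 and 3.44 in wild type, compared with 3.87 and 3.42 in the HP1a knockdown, and its HP1a folds in the HP1b knockdown were 3.83 and 3.25. Another, chr7:70582539-70585986, lay in AUTS2, a neurodevelopmental gene of a Polycomb-type complex, with HP1a folds of 3.70 and 4.04. The region chr19:11900376-11904206 lay in the zinc finger gene ZNF69, with HP1a folds of 3.50 and 3.25, and chr17:11869037-11871826 lay in the dynein gene DNAH9, with 3.38 and 3.30. The other 4 lay outside protein-coding genes, nearest to PCDHA1, PHB1, IRX2 and USP43.

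The 10 kept regions with the highest fold in the weakest HP1b library included none with an HP1a peak in either HP1b-knockdown list. The strongest, chr5:30628223-30628888, was 564.8 kb from its nearest protein-coding gene, the cadherin gene CDH6, with HP1b folds of 4.39 and 4.25 in wild type, compared with 4.07 and 5.58 in the HP1a knockdown. The next, chr13:97073179-97074092, was 67.7 kb from the splicing regulator gene MBNL2, with folds of 4.32 and 4.34 and then 4.99 and 4.05. Of the 10, those at TBC1D9, ACOT13 and ZNF37A lay inside protein-coding genes. The nearest wild-type HP1a peak to any of the 10 was between 1297 and 39196 bases away.

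Kept regions were on all 22 autosomes, with 32.9 per 10 Mb overall. Chromosome 19 held 661, or 112.8 per 10 Mb, and kept 51.2% of its 1290 HP1b-only regions. The next highest kept shares were 31.5% on chromosome 7 and 29.1% on chromosome 16, and the lowest were 19.2% on chromosome 18 and 19.8% on chromosome 9. Both HP1a-knockdown libraries showed the excess of chromosome 19: replicate 1 met 60.5% and replicate 2 met 68.4% of its HP1b-only regions, against 36.0 and 44.9% over all autosomes. Shared regions followed, with 76.7% of those on chromosome 19 met in both lists against 46.3% overall. Without chromosome 19 the kept share of HP1b-only regions was 23.9%.

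**Figure D3:**
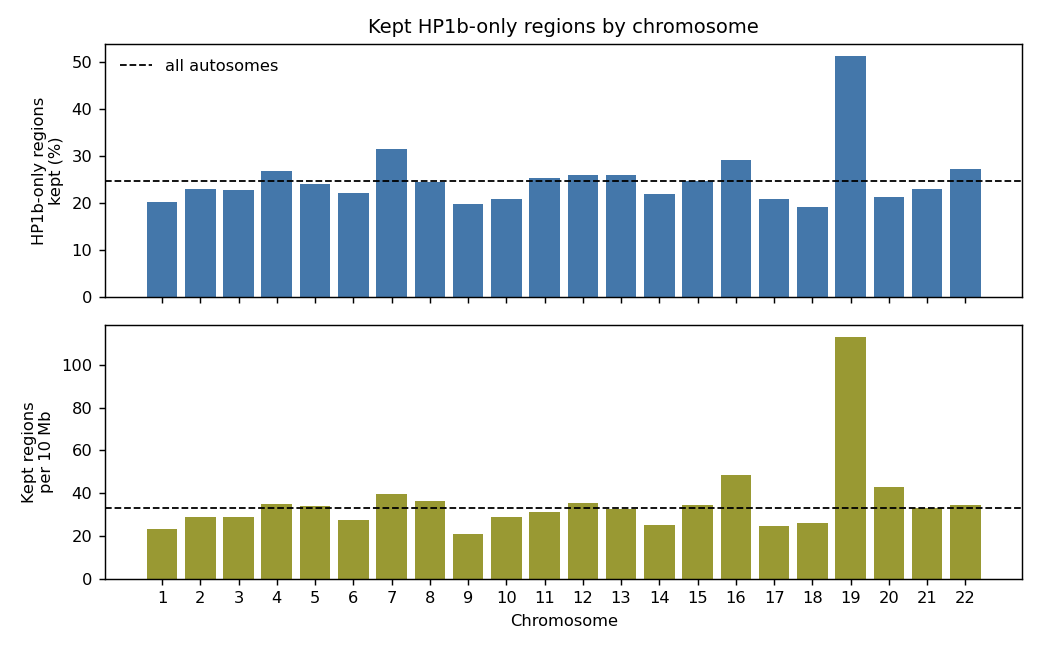
Kept HP1b-only regions on chromosomes 1 to 22: top, percent of each chromosome's HP1b-only regions that were kept; bottom, kept regions per 10 Mb. Bars start at 0, dashed lines give all autosomes (24.8% and 32.9), and chromosome 19 stands highest in both (51.2% and 112.8).

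Chromosome ends kept more of their HP1b-only regions: 40.0% of 335 within 1 Mb of an end, 35.8% of 2169 from 1 to 5 Mb, 24.5% of 9009 from 5 to 20 Mb and 23.8% of 26552 farther in. By number of protein-coding genes in a 1 Mb bin, the kept share was 29.0% with none, 28.1% with 1 to 4, 21.6% with 5 to 9, 19.7% with 10 to 19 and 26.0% with 20 or more. In the last class it was 17.2% without chromosome 19, so outside chromosome 19 the share was lower where genes were denser, from 28.2% with none. Kept regions were clustered in places: the 10% of bins with the most held 3812 of them (40.4%), and 545 of 2886 bins held none. Another kept region lay within 10 kb of 23.3% of them, and another lost region within 10 kb of 17.9% of lost regions. The median distance to the nearest other went the opposite way, 44.2 kb for kept and 40.0 kb for the more numerous lost regions.

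The bin with the most kept bases was 71 to 72 Mb on chromosome 7, with 55 kept, 14 single-list and 4 lost regions. It holds parts of GALNT17, a glycosyltransferase gene, and CALN1, a calmodulin-like gene of neurons. Wild-type HP1b peaks covered 24.9 and 24.4% of this bin and HP1a-knockdown HP1b peaks 38.0 and 46.4%, so both knockdown lists lay above both wild-type lists, but ranking bins by kept bases asks for peaks in those lists. HP1a peaks covered 7.05 and 7.57% in wild type, compared with 3.73 and 5.47% in the HP1b knockdown, where they covered 0.33 and 0.32% of all autosomes. The others were 34 to 35 Mb on chromosome 22 (40 kept regions, no protein-coding gene; 27.5 and 23.3% covered by HP1b in wild type, then 33.1 and 26.7%, which overlap), 42 to 43 Mb on chromosome 20 (42, in PTPRT; 22.8 and 21.0%, then 34.3 and 32.8%) and 30 to 31 Mb on chromosome 19 (42, at URI1 and ZNF536; 17.8 and 18.5%, then 27.4 and 40.2%).

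Protein-coding gene bodies held 33.0% of kept regions, 33.6% of single-list, 41.4% of lost and 34.4% of shared regions, and they make up 42.1% of the autosomal extent. The annotation used gives gene bounds without exons, so exonic and intronic regions were not separated. Of 19122 protein-coding genes, 1705 (8.92%) had a kept region in the body or within 1 kb. Genes of 300 kb or longer had one in 57.1% of cases and genes under 10 kb in 0.79%, so this count rose with length, and groups are better compared by the share of their HP1b-only regions that were kept. That share was 22.1% over all protein-coding genes (3176 of 14350) and 27.2% over genes of 300 kb or longer.

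The 10 genes with the most kept regions were long, with a median of 1055 kb. RBFOX1, which encodes a neuronal splicing regulator (chr16:5239721-7713340), held 105 kept, 47 single-list and 15 lost regions. Its body was covered by HP1b peaks over 19.8 and 18.9% in wild type, compared with 31.2 and 32.5% in the HP1a knockdown. HP1a peaks covered 4.15 and 5.01% in wild type, compared with 2.31 and 2.60% in the HP1b knockdown. Both HP1a-knockdown libraries thus lay above both wild-type libraries for HP1b, although the kept count itself came from those lists. In the HP1b knockdown, an HP1a peak met 29 of the 105 kept regions, 5 of the 47 single-list regions and 1 of the 15 lost regions.

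PTPRT, a receptor tyrosine phosphatase gene (chr20:42031890-43189906), held 51 kept and 8 lost regions, and HP1b covered 22.8 and 21.2% of it in wild type, compared with 33.6 and 33.2% in the HP1a knockdown. CALN1 (chr7:71779491-72504279) held 44 kept and 3 lost, with 22.9 and 20.6% covered in wild type, compared with 35.5 and 42.9% in the HP1a knockdown. NTM, which encodes the adhesion protein neurotrimin (chr11:131370615-132336822), held 25 kept and no lost regions, with 9.49 and 8.38% covered in wild type, compared with 41.6 and 40.6% in the HP1a knockdown. NTM had the widest gap of the 10 between the conditions. Its kept regions covered 3.34% of its body, and it was named by a count from the same HP1a-knockdown lists, so the gap is a description only.

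The other 6 were ASIC2 (39 kept regions), AUTS2 (36), the complement-domain gene CSMD1 (34), GALNT17 (32), the neuronal zinc finger gene ZNF536 (27) and the adhesion gene DSCAM (26). DSCAM was the exception, with 20.5 and 17.9% covered by HP1b in wild type, compared with 18.7 and 21.97% in the HP1a knockdown, which overlap. In 9 of the 10 both HP1a-knockdown libraries covered more of the body than both wild-type libraries. This was so for 43 of the 76 genes with 5 or more kept regions (56.6%), 18.4% of genes with any, 133 of the 739 genes of 300 kb or longer and 6.37% of all genes. The opposite order held for 13 of the 76 (17.1%), for 34.3% of genes with any kept region and for 44.8% of genes of 300 kb or longer. The rule asks for peaks in both HP1a-knockdown lists, so these counts are tied to it and describe the genes only.

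**Figure D4:**
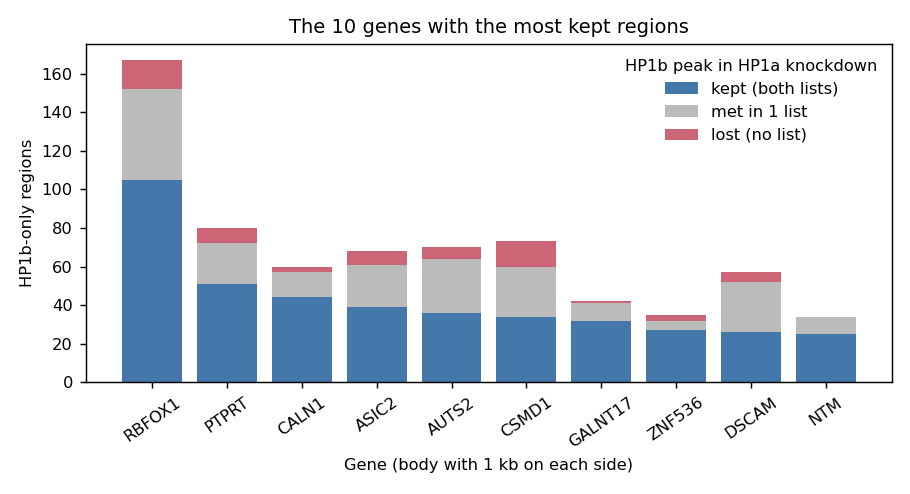
Number of HP1b-only regions in the 10 genes with the most kept regions (body with 1 kb on each side), stacked by whether the HP1a-knockdown HP1b lists met them in both, 1 or neither. RBFOX1 is the tallest with 105 kept of its HP1b-only regions, and NTM has none that was lost.

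Of the neuronal list, 24 of 44 genes had a kept region (54.5%, near the 57.1% of all genes of 300 kb or longer; the list has a median length of 560.6 kb), and 295 of their 631 HP1b-only regions (46.8%) were kept, or 40.9% without RBFOX1. At 300 kb or longer the share was 47.1% in the neuronal list and 24.8% in all other genes of that length. The list was chosen with earlier results of these data known. RBFOX1 (105 kept regions) and DSCAM (26) belong to it and to the 10 genes with the most kept regions, so these shares describe the list only. HP1a met 71 of the 295 kept regions (24.1%, or 22.1% without RBFOX1) in the HP1b knockdown, against 16.7% of all kept regions. Shared regions of the neuronal list were met in both HP1a-knockdown lists in 57.2% of cases, against 44.5% over all protein-coding genes. Without RBFOX1 this share was 49.3%.

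Of 543 C2H2 zinc finger genes, 189 (34.8%) had a kept region, beside 8.92% of all genes, although their median length of 23.4 kb was close to the 24.5 kb of all genes. Of their HP1b-only regions 325 of 653 (49.8%) were kept. Shared regions followed, with 78.6% of those in zinc finger genes met in both HP1a-knockdown lists against 44.5% over all protein-coding genes. On chromosome 19 the kept share of HP1b-only regions was 58.2% (220 of 378) in zinc finger genes and 30.5% (90 of 295) in the other protein-coding genes. On the other chromosomes zinc finger genes kept 38.2% (105 of 275). HP1a met 65 of the 325 regions in the HP1b knockdown. Zinc finger bodies are 0.75% of the extent and held 3.20% of kept, 0.81% of lost and 3.24% of shared regions.

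All 10 genes with the highest share of their body in kept regions, among genes with at least 3, were zinc finger genes. A high share is easier to reach in a short gene, and these 10 had a median length of 25.1 kb. Of the 534 genes with 2 or more kept regions, a lower limit than that of the ranking, 75 were C2H2 zinc finger genes. These make up 543 of all 19122 protein-coding genes. ZNF878 (chr19:12043602-12052961) had 59.2% of its body in 3 kept regions and no other HP1b-only region. HP1b covered 32.3 and 63.3% of it in wild type, compared with 55.5 and 65.9% in the HP1a knockdown, and HP1a 8.09 and 0% in wild type, compared with 25.7 and 0% in the HP1b knockdown. The HP1a value thus came from replicate 1 alone in both conditions. ZNF432 (chr19:52031378-52048838) had 34.3% of its body in 5 kept regions, with HP1b over 50.4 and 46.1% in wild type, compared with 65.2 and 40.9% in the HP1a knockdown. ZNF502 (chr3:44712660-44723831) had 30.9%, with 46.2 and 45.5% and then 32.4 and 44.2%. In these 10 genes the libraries of the conditions mostly overlapped, both HP1a-knockdown values lying above both wild-type values in 2 and below in 3. The shorter gene ZNF256, with 1 kept region over 67.1% of its body, had 35.6 and 76.7% in wild type, compared with 58.2 and 61.0% in the HP1a knockdown, with no HP1a peak in wild type.

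Of 53 clustered protocadherin genes 29 had a kept region (54.7%, beside 8.92% of all genes), but the genes of a cluster overlap in the annotation. They share 9 distinct kept regions of 11 HP1b-only ones (81.8%, beside 22.1% over all protein-coding genes). None of the 11 was lost from both HP1a-knockdown lists. Of their 30 shared regions 83.3% were met in both lists, against 44.5% over all protein-coding genes. PCDHB7, a single-exon beta gene, had HP1b over 19.8 and 12.7% of its body in wild type, compared with 31.5 and 35.6% in the HP1a knockdown, and HP1a over 4.65 and 0% in wild type, compared with 19.9 and 5.11% in the HP1b knockdown. PCDHB13 had 24.2 and 20.3% and then 39.6 and 53.0% for HP1b. PCDHB14 had 4.14 and 12.0% and then 11.7 and 10.6%. HP1b coverage was thus higher in both HP1a-knockdown libraries at PCDHB7 and PCDHB13, and the conditions overlapped at PCDHB14. These genes, and the imprinted genes named below, were picked by the share of their body in kept regions. The rule asks for peaks in both HP1a-knockdown lists there, so their HP1b coverage is a description only. Imprinted genes, expressed from the copy of a single parent, kept 32 of 74 HP1b-only regions (43.2%, beside 22.1% over all protein-coding genes). A kept region was present in 8 of 33 imprinted genes (24.2%, beside 8.92% of all genes), and a single gene held 14. Of the 66 shared regions of imprinted genes 77.3% were met in both HP1a-knockdown lists, against 44.5% over all protein-coding genes. PEG3, an imprinted zinc finger gene, held 1 kept region, with HP1b over 22.4 and 25.4% in wild type, compared with 45.6 and 37.4% in the HP1a knockdown. At ZIM2, which overlaps PEG3 and held 4, these values were 23.7 and 22.3% and then 35.1 and 33.5%. At SNRPN, a splicing protein gene with 6, they were 36.3 and 32.4% and then 31.98 and 42.4%, which overlap. PEG3 and ZIM2 lie on chromosome 19, where 51.2% of all HP1b-only regions were kept.

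Of 44 epithelial and basal genes 4 had a kept region (9.09%, near the 8.92% of all genes), and they kept 8 of 20 HP1b-only regions, 40.0% beside the 22.1% of all protein-coding genes. The 40.0% rests on only 8 regions in 4 genes. Of the 26 shared regions of the epithelial list 57.7% were met in both HP1a-knockdown lists, beside 44.5% over all protein-coding genes. The laminin gene LAMA3 had 2 kept regions, and HP1b covered 5.86 and 4.64% of it in wild type, compared with 0.73 and 1.63% in the HP1a knockdown, so a gene can hold kept regions while both knockdown libraries cover less of it. Of 36 mesenchymal transition genes 3 had one (8.33%, with 3 of 34 HP1b-only regions kept, 8.82%), namely PRRX1, COL6A3 and COL5A2. Of 50 TGF-beta and BMP pathway genes 3 had one (6.00%, with 4 of 39 regions kept, 10.3%), namely the ligand gene BMP6, the latent TGF-beta binding protein gene LTBP1 and the receptor gene ACVR2A. Of the 21 shared regions of the mesenchymal list 28.6% were met in both HP1a-knockdown lists. The share was lower still over the 44 shared regions of the TGF-beta list, so both lay below the 44.5% over all protein-coding genes. The low shares of both gene lists were thus not particular to HP1b-only regions. None of the 3 and 4 kept regions of the mesenchymal and TGF-beta lists met an HP1a peak in the HP1b knockdown. These numbers are too small to set against the 16.7% of all kept regions.

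Among the other lists, potassium channel genes kept 25 of 159 HP1b-only regions (15.7%), classical and type II cadherin genes 16 of 97 (16.5%), collagen chain genes 17 of 78 (21.8%), olfactory receptor genes 16 of 53 (30.2%), and germline and cancer-testis genes 7 of 23 (30.4%). The germline genes included PRDM9, the meiotic recombination histone methyltransferase gene, with 2 kept regions. Heterochromatin and lamina genes kept 1 of 18, in ATF7IP, a partner of the H3K9 methyltransferase SETDB1. Cohesin, condensin and CTCF genes kept 2 of 9, both in STAG1, interferon and antiviral genes 1 of 9, in MX1, and keratin genes 1 of 11, in KRT34. HOX genes (3 HP1b-only regions) and ribosomal protein genes (1) kept none, and replication-dependent histone genes had none to keep. CBX1, CBX3 and CBX5 held no HP1b-only region.

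**Figure D5:**
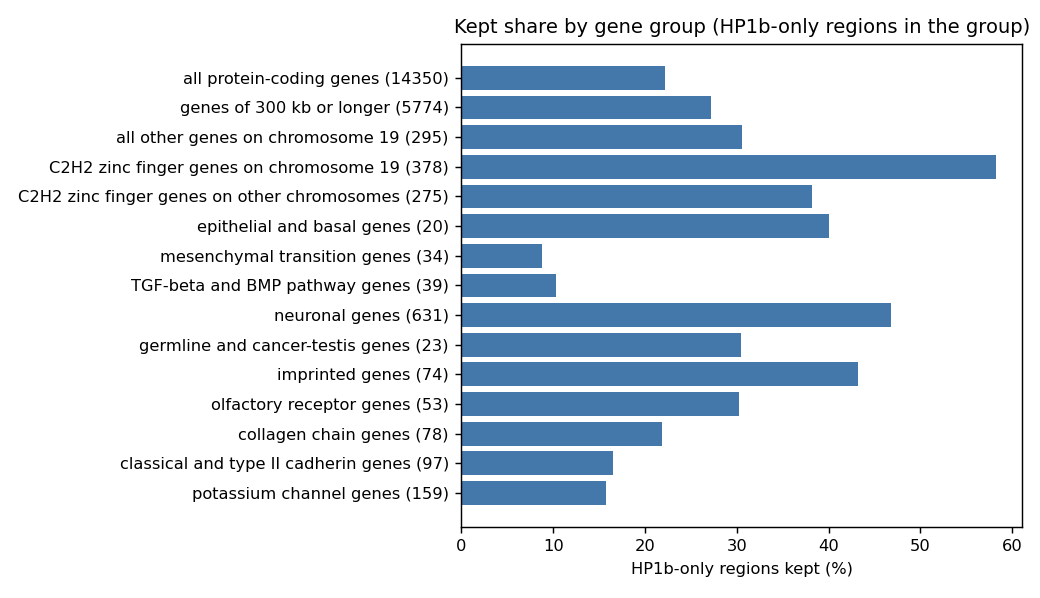
Percent of HP1b-only regions that were kept, by gene group (body with 1 kb on each side), for reference groups and each list with at least 20 such regions; the number in brackets is the group's HP1b-only regions. Bars start at 0 and carry no replicate error, and chromosome 19 zinc finger genes (58.2%) and neuronal genes (46.8%) lie above all protein-coding genes (22.1%). The lists were chosen with earlier results of these data known. Shared regions, not drawn, were met in both HP1a-knockdown lists in 79.6, 57.2 and 44.5% of cases in these 3 groups. Without RBFOX1 the neuronal list kept 40.9% of its HP1b-only regions, and 49.3% of its shared regions were met in both lists.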

How the data were processed

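HP1a and HP1b ChIP-seq peak lists of 8 MCF10A libraries were used, as the authors deposited them, 1 list per library. Per the submitters' processing notes, Trimmomatic, Bowtie2 and SAMtools were used with MACS3 on hg38; the sources used here give no version, setting or input library. Per the file layout, each deposited broad peak has a score, a fold enrichment ratio, a −log10 p and a −log10 q. The deposited lists hold no counts, so depth and its precision are unknown.

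Regions were built with Python 3.11.15, numpy 2.4.6 and pandas 2.3.3, and the interval functions were tested on simulated data and against bedtools 2.31.1. An overlap needed 1 base. Genes and promoter windows came from RefSeq on GRCh38.p14, the assembly of hg38. Bins were 1 Mb wide and genes took 1 kb on each side. The members, the gene lists and the rules were chosen with earlier results of these data known. Named genes were the 10 with the most kept regions, the 10 with the highest covered share among those with at least 3, up to 3 per list by covered share, and CBX1, CBX3 and CBX5; 1 gene that this rule names is not reported here. Named regions were the 10 with the highest fold in the weakest HP1b library, and 8 likewise among those with HP1a in both HP1b-knockdown lists, with 4 bins by kept bases. No statistical test was made, since the rule used 6 of the 8 lists and each group has 2 libraries.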

Additional observations from a re-analysis of the deposited data

Results flagged for a closer look

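Chromosome X was outside the rule. Applied there, the rule met 790 regions, 28.3% of 2788 HP1b-only regions, in data the comparisons did not use. The share was 24.8% over all autosomes, and between 19.2% (chromosome 18) and 51.2% (chromosome 19) on single ones. An HP1a peak of the HP1b knockdown met 105 of the 790 (13.3%), beside 16.7% of the kept regions of the autosomes.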

How the results depend on the processing

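The number of kept regions was within 1.5 times of 9444 with an overlap of 50% of the shorter interval, merging over gaps under 1 kb, a 1 kb distance from wild-type HP1a, chromosome X added and chromosome 19 left out, the last chosen after seeing the data. It fell to 123 where −log10 q had to reach 2, to 405 where −log10 p had to reach 4, and to 2755 where each list of the rule gave equally many peaks. Under these 3 settings the kept percent of HP1b-only regions was 18.3, 17.7 and 24.4%, the percent met by HP1a in the HP1b knockdown 1.63, 18.02 and 20.3%, and for the first 2 settings the percent in gene bodies 43.1 and 40.5%; the cause was not tested. The value of 1.63% is 2 of 123 regions. The kept percent was 19.4% with 50% overlap, 23.1% after merging, 24.2% with the 1 kb distance and 23.9% without chromosome 19. The percent met by HP1a was 15.4, 17.8 and 15.8% under the first 3, 1.43% when both libraries had to meet, and 18.1% in regions of 1 to 2 kb, a width chosen after seeing the data. With 5 kb flanks 36.5% of kept regions lay in genes and 10.2% of genes had a kept region. Leaving out each library in turn gave 13703 to 18574 kept regions, a kept percent of 11.3 to 44.9%, 8.92 to 18.5% met by HP1a and 32.3 to 33.6% in gene bodies. Under all 18 alternatives, libraries left out included, the percent met by HP1a was higher in kept than in lost regions, by 3.33 to 26.5 times. These alternatives reuse the same lists and are not independent of each other. With −log10 q of at least 2 the lost count was 1 of 307 regions, and the 26.5 times rests on 9 of 16707 lost regions. No paired analysis was possible because the results come from no test. Depth is unknown, and most peaks lie near the lists' lower limit.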

Other observations

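Of 1461 autosomal miRNA hairpins of RefSeq, 1 overlapped a kept region (MIR3914-2), 7 a lost region and 28 a shared region.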
